A study of Arabidopsis thaliana with 7 samples.

Results

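The genes described here are 8 Arabidopsis thaliana genes known from the branching, endoreduplication and maturation of trichomes: ZWI (AT5G65930), STI (AT2G02480), AN (AT1G01510), SIM (AT5G04470), TBR (AT5G06700), GIS (AT3G58070), ZFP5 (AT1G10480) and ZFP8 (AT2G41940). They were chosen by locus, and every probe whose RefSeq transcript belongs to 1 of these loci was taken, which gave 11 probes for 8 genes among 25347 genes on the array. RNA from whole seedlings of accession Columbia-0, 3 weeks old, was hybridised to 7 single-colour Agilent arrays. The transgenic group, 35S:MYB106VP16, had 4 arrays and carries the MYB factor MYB106 fused to the VP16 activation domain of a herpesvirus, under the 35S promoter of cauliflower mosaic virus, which is active in most cell types. Wild type had 3 arrays. Plants of both groups were raised at 23 °C on MS agar that contained 1% sucrose, with 16 h of light and 8 h of dark. The labels do not say how many transgenic lines were used, and they describe several plants of a shared plate being taken for each RNA. Nothing in the labels says that samples came from separate cultures, so each p-value is set against a spread between samples that may be only technical. The comparison asks which transcripts differ in plants with this broadly driven activator.

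A leaf trichome of Arabidopsis is a single cell that leaves the mitotic cycle, replicates its DNA several times without dividing, grows out of the epidermis and branches, and then lays down a thick wall. An activator complex of MYB, bHLH and WD40 proteins starts this programme, single-repeat MYB proteins oppose it in neighbouring cells, and C2H2 zinc finger proteins of the GIS group link it to gibberellin and cytokinin. MYB106, also called NOECK, is known as a repressor of trichome branching and as a regulator of the cuticle.

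MYB106 itself stood at 3.08, 3.29, 3.48 and 2.56 on the transgenic arrays and at -2.53, -2.86 and -2.41 on the wild-type arrays, as log2 signal relative to the 75th percentile of each array, the scale used for all levels below. Each genotype was hybridised on a slide of its own, so slide and genotype cannot be told apart. Across arrays 73.5% to 76.3% of probes were well above background, and arrays correlated across genes at 0.988 to 0.994 within groups and at 0.955 to 0.966 between them (genes are not independent replicates). A change is called where limma's Benjamini-Hochberg adjusted p, over all 20509 genes tested, is under 0.05. The median log2 change of all tested genes was 0.02. The 7 bright spike-in RNAs of the labelling kit read 0.19 to 0.87 higher in 35S:MYB106VP16 than in wild type on this scale, so changes below are relative to the other genes of the seedling. Of all genes tested, 5768 were higher and 5083 lower, against 7559 and 3787 with median scaling, 7306 and 2277 in the authors' deposited series table and 1252 and 13196 with scaling to the spike-ins.

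Of the 8 trichome genes, SIM and ZFP8 were higher in 35S:MYB106VP16, STI was lower, and ZWI, AN, TBR, GIS and ZFP5 were not called. Thus 3 of 8 were called, where 52.9% of all genes tested were, 28.1% higher and 24.8% lower. The groups did not overlap for STI, SIM and ZFP8, nor for 57.6% of all genes tested. With 8 genes, nothing is read from the distance between these shares. None of the 8 changed by 2-fold or more, which 10.5% of all genes did with a call. All 8 genes passed the filter on dim probes, and all 11 probes were well above background on all 7 arrays. The median log2 change of the 8 genes was 0.07. In whole seedlings, fewer trichomes and less RNA of a gene per trichome cannot be told apart.

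**Figure D1:**
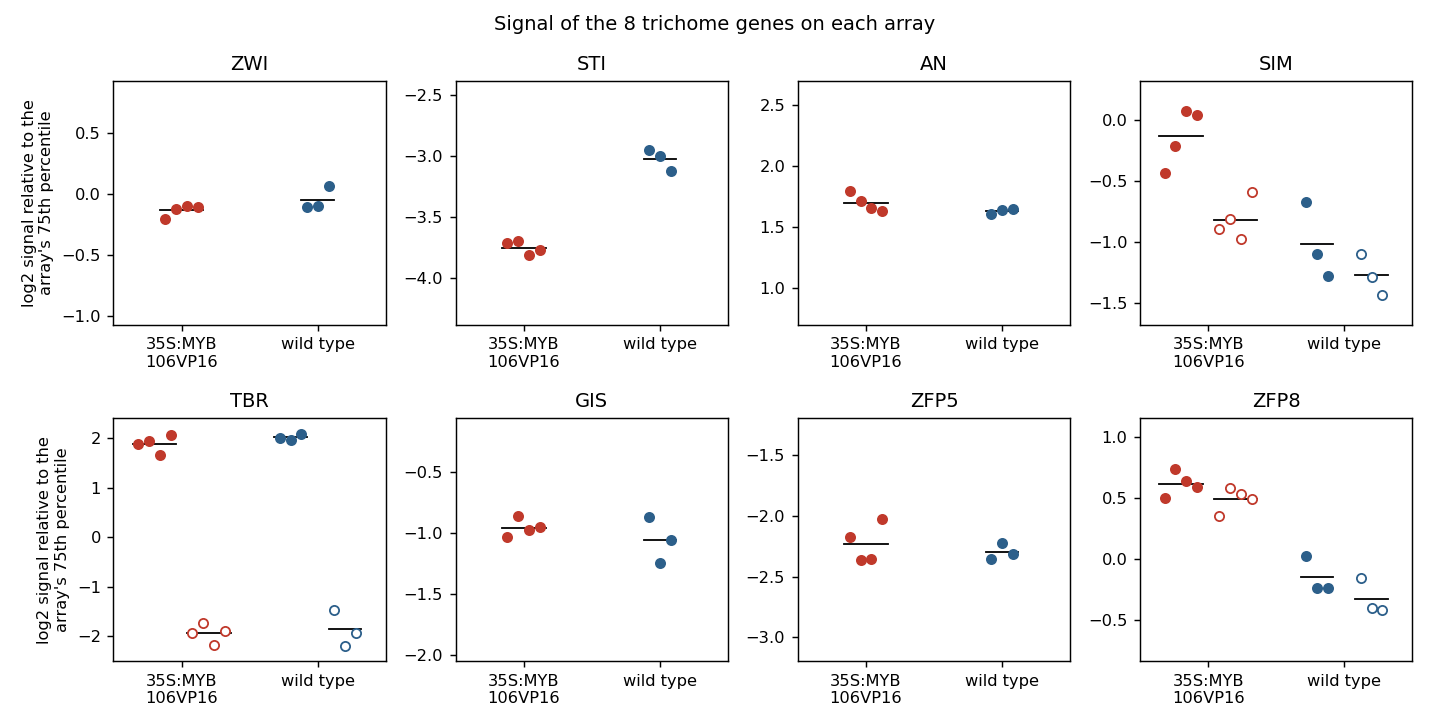
Signal of each of the 8 genes on the 7 arrays, as log2 relative to the array's 75th percentile, with 35S:MYB106VP16 in red and wild type in blue. Filled points are the probe that represents the gene, open points a second probe, and bars are group means. Only STI, SIM and ZFP8 show groups that do not overlap, which 57.6% of all genes tested also show. STI lies between -3.82 and -3.70 in the transgenic arrays against -3.12 to -2.96 in wild type.

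Branching of trichomes depends on ZWI, STI and AN. STI (STICHEL) encodes a protein that resembles a subunit of bacterial DNA polymerase III, and its dosage is known to set the number of branches. It stood at -3.72, -3.70, -3.82 and -3.78 in 35S:MYB106VP16 and at -2.96, -3.00 and -3.12 in wild type. Every transgenic array was below every wild-type array, with a gap of 0.58 between the groups, while the arrays of a group lay within 0.12 (transgenic) and 0.17 (wild type). This is a 1.65-fold lower level of STI (limma log2 change -0.73, SE 0.07, adjusted p = 0.00035), and 20.4% of tested genes had a larger absolute change.

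ZWI (ZWICHEL) is a kinesin motor bound by calmodulin that acts on the microtubules of the growing trichome. Its levels were -0.21, -0.12, -0.10 and -0.11 in 35S:MYB106VP16 and -0.10, -0.10 and 0.06 in wild type. The groups overlapped and the difference did not pass (log2 -0.09, 95% interval -0.26 to 0.08; limma adjusted p = 0.343). AN (ANGUSTIFOLIA), a protein related to the CtBP co-repressors of animals that shapes leaves as well as trichomes, gave 1.79, 1.71, 1.65 and 1.63 against 1.60, 1.63 and 1.65. Its groups overlapped too (log2 0.07, 95% interval -0.09 to 0.22; limma adjusted p = 0.449). For both, the interval does not reach a change as large as that of STI.

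SIM (SIAMESE) is an inhibitor of cyclin-dependent kinases that keeps the trichome from dividing, and sim mutants have trichomes of several cells. Its brighter probe stood at -0.43, -0.21, 0.08 and 0.04 in 35S:MYB106VP16 and at -0.68, -1.10 and -1.28 in wild type. No transgenic array reached down to a wild-type array, but the gap of 0.24 was smaller than the spread within either group, 0.51 and 0.61. SIM was 1.85-fold higher (log2 0.89 ± 0.18 SE; limma adjusted p = 0.0052). Its other probe, against the same transcript, stood at -0.89, -0.81, -0.98 and -0.59 and at -1.10, -1.29 and -1.44, and gave a smaller change, 1.37-fold higher (log2 0.46 ± 0.12 SE; limma adjusted p = 0.0156 over 33215 probes, of which 53.9% were called). The difference in change between the 2 probes was 0.43 on the log2 scale, with an exact permutation p of 0.0571, two-sided, the smallest that 4 against 3 arrays allow. The 2 probes of ZFP8 gave the same exact permutation p, 0.0571, for a difference of only -0.05. Both probes put SIM higher, and whether the size of its change depends on the probe is not settled by these arrays.

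TBR (TRICHOME BIREFRINGENCE) belongs to a plant protein family of wall polysaccharide acetylation and is needed for crystalline cellulose in the trichome wall. Its brighter probe gave 1.87, 1.93, 1.66 and 2.07 in 35S:MYB106VP16 and 1.99, 1.96 and 2.09 in wild type. The groups overlapped (log2 -0.13, 95% interval -0.38 to 0.11; limma adjusted p = 0.322), as they did for the dimmer probe (log2 -0.08 ± 0.18 SE), whose wild-type arrays alone spanned 0.72. Neither probe was called, and the interval of the brighter one does not reach a change as large as that of STI. A smaller change of TBR was not detectable against the spread of the arrays.

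**Figure D2:**
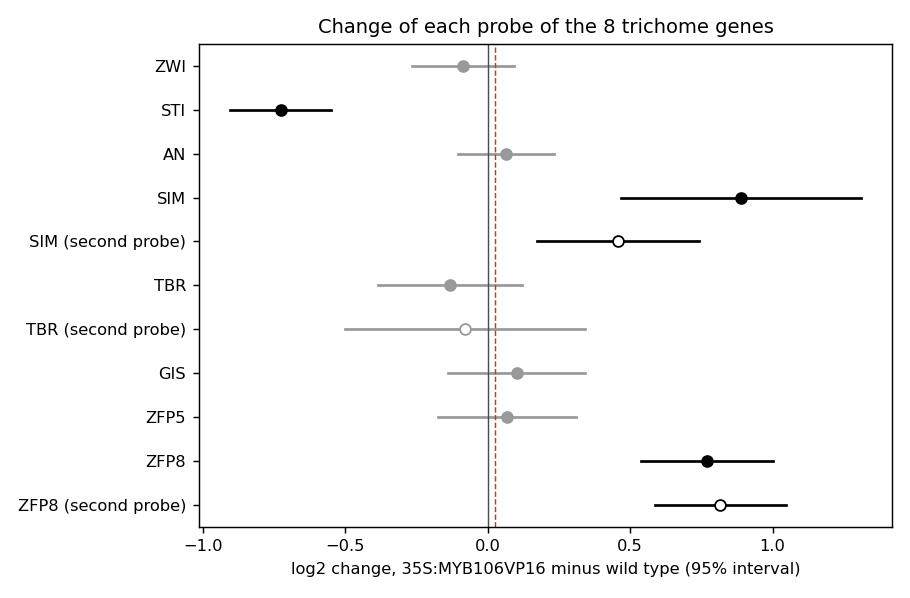
Log2 change of each of the 11 probes, 35S:MYB106VP16 minus wild type, with 95% intervals from limma over all probes. Black marks an adjusted p under 0.05, grey the others, open points the second probe of a gene, and the dashed line the median of all genes tested, 0.02; STI lies below 0, both probes of SIM and of ZFP8 lie above it, and the other intervals include 0.

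GIS, ZFP5 and ZFP8 are C2H2 zinc finger proteins with a single finger that promote trichome formation on the shoot. ZFP8 acts in inflorescence organs in response to gibberellin and cytokinin. Its brighter probe stood at 0.50, 0.74, 0.64 and 0.59 in 35S:MYB106VP16 and at 0.02, -0.24 and -0.24 in wild type, so the groups were apart by 0.47. The other probe gave 0.35, 0.58, 0.53 and 0.49 against -0.16, -0.40 and -0.43, with a gap of 0.51. ZFP8 was 1.70-fold higher by the first (log2 0.77 ± 0.10 SE; limma adjusted p = 0.00077) and 1.76-fold by the second, and 18.6% of tested genes had a larger absolute change.

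GIS, the founding member of the group, did not follow ZFP8. Its levels were -1.03, -0.86, -0.98 and -0.95 in 35S:MYB106VP16 and -0.87, -1.24 and -1.06 in wild type, which overlap (log2 0.10, 95% interval -0.13 to 0.34; limma adjusted p = 0.42). ZFP5, which acts upstream of GIS and ZFP8 in shoots and also promotes root hairs, gave -2.18, -2.36, -2.36 and -2.03 against -2.36, -2.22 and -2.31. It was not called (log2 0.07, 95% interval -0.17 to 0.30; limma adjusted p = 0.602). The upper bounds for GIS and ZFP5 lie below the lower bound for ZFP8, 0.54, but the difference between genes was not tested.

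The scaling to spike-ins moved all 8 genes down together, since it lowered the log2 change of all genes to a median of -0.54. With it STI stayed lower, SIM (log2 0.32; limma adjusted p = 0.0917) and ZFP8 (log2 0.21; limma adjusted p = 0.176) no longer passed, and the 5 uncalled genes were called lower. Under each of the 15 other settings, SIM and ZFP8 were called higher, STI lower and no other member was called.

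**Figure D3:**
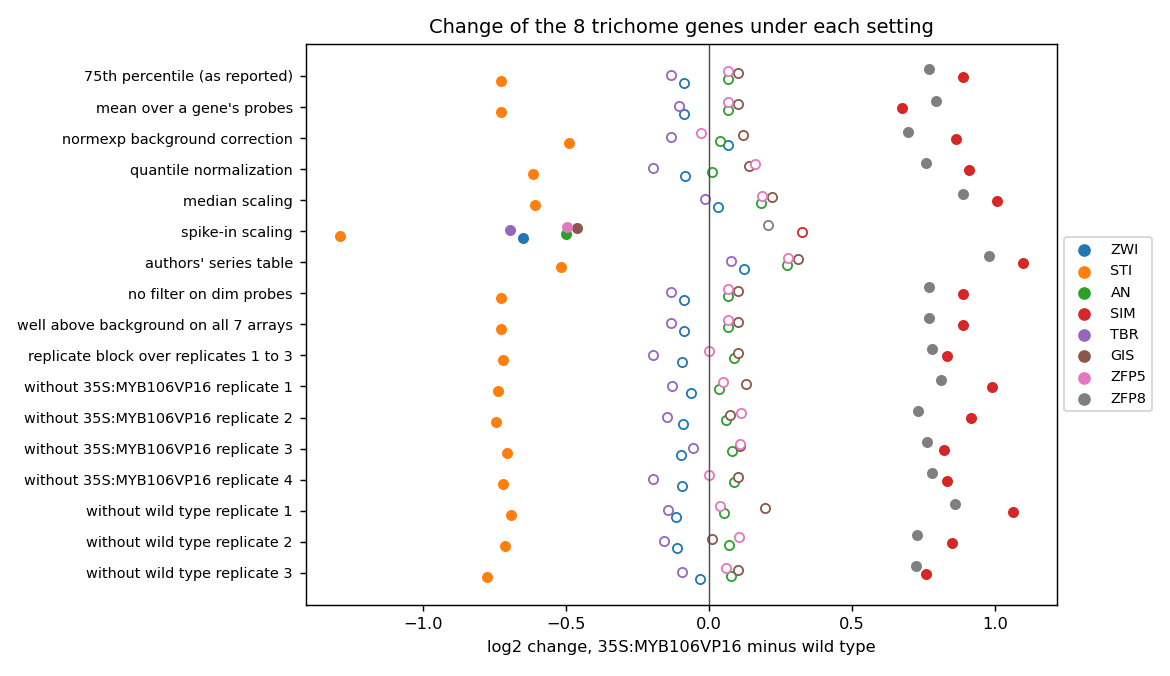
Log2 change of the 8 genes, 35S:MYB106VP16 minus wild type, under each setting; filled points have an adjusted p under 0.05 in limma. Filled points are STI on the left and ZFP8 and SIM on the right in every setting except scaling to spike-ins, where all genes shift left and ZFP8 (0.21) and SIM (0.32) are open.

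The genes whose profiles over the 7 arrays lay closest to that of SIM, by root mean square distance of centred log2 values among 9007 genes with a symbol, were CDA1, a cytidine deaminase (distance 0.09), PYL1, an abscisic acid receptor (0.09), and PRN, a pirin (0.09). For ZFP8 they were AtRZ-1c, an RNA-binding protein (0.05), NF-YB3, a subunit of the CCAAT-binding factor (0.06), and RGTB2, a subunit of Rab geranylgeranyl transferase (0.07). The distance includes the difference between the genotypes, which 52.9% of genes tested share in 1 direction or the other.

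SIM belongs to a small family of kinase inhibitors. Of its 5 tested relatives 3 were higher as well, where 28.1% of all genes tested were. With 5 genes, nothing is read from the distance between these shares. Of 16 genes that act in endoreduplication, 15 were tested, 5 rose, 3 fell and 7 were not called, with a median log2 change of 0.15. The share of the list that was called, 53.3%, is close to the 52.9% of all genes. SMR7, a SIM relative known to respond to DNA damage, stood at -1.94, -2.53, -1.98 and -1.84 in 35S:MYB106VP16 and at -3.87, -4.05 and -4.30 in wild type. It was 4.0-fold higher (log2 2.0 ± 0.18 SE; limma adjusted p = 0.00028), well beyond the spread of either group. SMR2 was 1.81-fold higher and SMR1 (LGO), which sets giant cells of the epidermis, 1.56-fold, and their groups did not overlap, as for 57.6% of all genes tested. SMR3 (log2 0.34; limma adjusted p = 0.0981) and SMR4 (log2 0.15; limma adjusted p = 0.537) were not called. SMR1, SMR3, SMR4 and several others below were picked for naming after their values were seen.

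Among the other endocycle genes 2 rose, 3 fell and 5 were not called. The higher ones were CPR5, which promotes endoreduplication and branching in trichomes (log2 0.52; limma adjusted p = 0.00114), and RHL2, a subunit of plant topoisomerase VI (log2 0.30; limma adjusted p = 0.0398). CCS52A1, an activator of the anaphase-promoting complex that removes mitotic cyclins, stood at -2.57, -2.51, -2.41 and -2.94 against -1.89, -1.70 and -1.70, which is 1.79-fold lower (limma adjusted p = 0.00186). CCS52A2, its homolog, was 1.38-fold lower (limma adjusted p = 0.0166), and did not pass without wild type replicate 2 (0.0505), without wild type replicate 3 (0.0551), with normexp (0.0532) or in the authors' series table (0.256). DEL1, an E2F-type repressor that holds endoreduplication back, fell as well, 1.70-fold (limma adjusted p = 0.00114). The 3 lower genes thus include both promoters and an inhibitor of the endocycle. With scaling to spike-ins 1 of the 15 was higher, SMR7, and 8 were lower. The number higher was 4 with no filter on dim probes and with the replicate block, 7 with median scaling and 6 in the authors' series table. It was also 4 without 35S:MYB106VP16 replicate 3 or 4, and without any single wild-type replicate. RHL2 held the largest adjusted p of the higher genes.

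**Figure D4:**
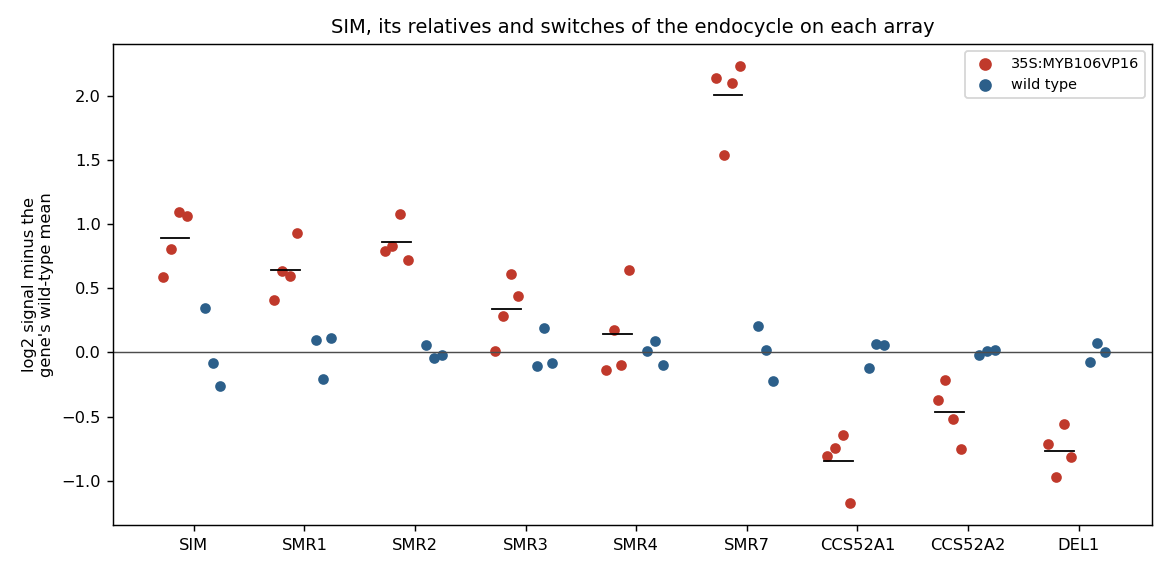
Log2 signal of SIM, its relatives and endocycle regulators on each array, minus the mean of the gene's wild-type arrays, with 35S:MYB106VP16 in red, wild type in blue and bars at the transgenic means. SMR7 lies highest with a mean of 2.0, SIM, SMR1 and SMR2 lie above their wild-type points, CCS52A1, CCS52A2 and DEL1 below them, and SMR3 and SMR4 overlap.

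Among 14 other genes of branching and the trichome cytoskeleton 4 rose, 1 fell and 9 were not called (median log2 change 0.05). Called were 35.7% of these, against 52.9% of all genes tested. KIS, a tubulin folding cofactor whose loss swells trichomes, was 1.55-fold higher (log2 0.63 ± 0.08 SE; limma adjusted p = 0.000937). ARPC5 (log2 0.46) and ARP2 (log2 0.33), subunits of the actin-nucleating ARP2/3 complex, and BRK1 (log2 0.45), of the SCAR complex that activates it, were higher. ARPC5, ARP2 and BRK1 turned to log2 -0.11, -0.24 and -0.11 with scaling to spike-ins, under which none of the 14 was called higher and 10 were lower. POR, another tubulin folding cofactor, was 1.14-fold lower (limma adjusted p = 0.0288), a call lost without any of 4 arrays in turn (0.058 to 0.106) and at log2 0.01 in the authors' series table.

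Of 10 other C2H2 genes with a single finger, 8 were tested, 1 rose, 2 fell and 5 were not called (median log2 change -0.25). The share called was 37.5%, against 52.9% of all genes tested. GIS2, the closest partner of ZFP8 in inflorescence trichomes, and ZFP11 were not well above background on any array. ZFP10 was higher (log2 0.94 ± 0.15 SE; limma adjusted p = 0.00201), but not with normexp (log2 0.26; 0.0743), and it was among the dimmest of these probes to be tested, at -6.22 to -5.65 in 35S:MYB106VP16 and -6.92 to -6.65 in wild type. ZFP7 was 1.73-fold lower (limma adjusted p = 0.000495) and ZFP1 1.47-fold lower (limma adjusted p = 0.00395; 0.156 with normexp). GIS3, which acts upstream of GIS (log2 -0.30; limma adjusted p = 0.17), and ZFP6, which acts upstream of ZFP5 (log2 -0.28; limma adjusted p = 0.174), were not called. GIS3 was called lower without 35S:MYB106VP16 replicate 4 (log2 -0.43; limma adjusted p = 0.0337). With scaling to spike-ins none of the 8 was higher and 6 were lower.

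Of 7 other genes of the trichome wall and maturation 4 fell, none rose and 3 were not called (median log2 change -0.37). The share called, 57.1%, is close to the 52.9% of all genes tested. TBL3, a close relative of TBR in secondary walls, stood at -2.98, -3.01, -2.81 and -2.56 in 35S:MYB106VP16 and at -2.06, -2.34 and -2.31 in wild type, which is 1.52-fold lower (limma adjusted p = 0.00708). CESA6, a cellulose synthase of primary walls, was 1.44-fold lower and TBL29 (ESKIMO1), a xylan acetyltransferase, 1.36-fold. In the authors' series table none of the 7 was lower and 1 was higher, with TBL3 at an adjusted p of 0.058 in limma, CESA6 at 0.0529 and TBL29 at 0.183. With median scaling 3 were lower and 1 was higher. The number lower was 6 with the mean over probes, with quantile normalization and with scaling to spike-ins.

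Of 10 initiation activators 6 fell, none rose and 4 were not called, with a median log2 change of -0.40. That is 60% called, where 52.9% of all genes tested were, 24.8% lower and 28.1% higher. EGL3, a bHLH factor, stood at -4.67, -4.40, -4.86 and -4.20 in 35S:MYB106VP16 and at -3.62, -3.69 and -3.58 in wild type, 1.87-fold lower (limma adjusted p = 0.00263). GL3, its homolog, was 1.73-fold lower (limma adjusted p = 0.0146), a call that did not hold without wild type replicate 2 (0.0539), with normexp (log2 -0.23; 0.114) or in the authors' series table (0.0532). The MYB partners GL1 and MYB23 were 1.72-fold and 1.70-fold lower. GL2, a homeodomain factor that acts downstream of this complex, was not called (log2 0.27; limma adjusted p = 0.0834), and was called higher without 35S:MYB106VP16 replicate 2 (0.024), with median scaling (0.0302), with normexp (0.0147) and in the authors' series table (0.00595). By the authors' values, 3 of the 10 were lower and 2 higher.

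Of 7 single-repeat MYB inhibitors 2 fell, 1 rose and 4 were not called (median log2 change -0.25). Called were 42.9% of them, against 52.9% of all genes tested. TCL2 was 2.56-fold lower (limma adjusted p = 0.00289) and ETC2 1.89-fold (log2 -0.92; limma adjusted p = 0.00949; log2 -0.47 with normexp), while CPL3 was 1.89-fold higher (limma adjusted p = 0.015). The call on CPL3 was lost when its probes were averaged (0.0518) and with scaling to spike-ins (0.18).

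Gibberellin acts on trichomes through the GIS group. Of 27 genes of its synthesis and signalling 25 were tested, 4 rose, 9 fell and 12 were not called (median log2 change -0.04). The share called, 52%, is close to the 52.9% of all genes tested. GA20OX1, an oxidase late in synthesis, was 3.25-fold lower (limma adjusted p = 0.00375), with -4.34, -4.00, -5.23 and -3.98 in 35S:MYB106VP16 against -2.32, -2.94 and -2.81. GA1, the first committed enzyme, was 2.78-fold lower (log2 -1.48; limma adjusted p = 0.000497) and well above background on 3 of 4 transgenic arrays. With normexp its change was log2 -0.38. GID1C, a gibberellin receptor, was 1.75-fold higher (limma adjusted p = 0.000292), though not with scaling to spike-ins (0.1). The authors' series table had 5 of the 25 higher and 3 lower, and scaling to spike-ins none higher and 17 lower.

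Lists of markers of the cell types that a whole seedling holds differed in the share called. Called were 80% of the epidermis, 85.7% of the root hair and 50% of the guard cell lineage markers. Of the mesophyll markers 16.7% were called and of the flower markers 20%, against 52.9% of all genes tested. Of 5 epidermis markers 3 rose, among them the fatty acid elongases CER6 (2.05-fold) and FDH (1.77-fold). ATML1, a homeodomain factor of epidermal identity, fell (log2 -0.74; limma adjusted p = 0.00187), and its relative PDF2 was not called (log2 -0.14). With scaling to spike-ins none of the 5 was higher and 2 were lower. Their summed level, in units of the array's 75th percentile, was 53.5 to 78.3 in 35S:MYB106VP16 against 42.0 to 46.4 in wild type. Such sums add linear signals, so the brightest genes weigh most. Here these are LTP1, CER6 and FDH (means 4.92, 4.22 and 3.22 in 35S:MYB106VP16), while PDF2 (2.50) and ATML1 (1.23) weigh less. The sum is thus no measure of the amount of epidermis. Of 7 root hair markers 6 rose and none fell, with PRP3 4.16-fold (log2 2.06) and EXPA7 2.03-fold higher, and their summed level was 0.877 to 1.49 against 0.570 to 0.693. With normexp, and without wild type replicate 3, 4 of the 7 were higher, with scaling to spike-ins 1 was, and PRP3 stood at log2 1.07 with normexp. The 6 guard cell lineage markers held 3 that fell, with KAT1, a potassium channel, 2.87-fold and SPCH, the factor that starts the lineage, 2.52-fold lower. The summed level of the 6 was 2.42 to 3.61 against 3.37 to 3.67. TMM and FAMA weigh most in this sum on the transgenic arrays (means 0.49 and 0.47), and FAMA was not called (log2 -0.15). MUTE (log2 0.32; limma adjusted p = 0.0588) and TMM (log2 0.26; limma adjusted p = 0.146) were not called, and 2 of the 6 were called higher with median scaling and without 35S:MYB106VP16 replicate 3.

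Of 6 mesophyll markers CA1, a carbonic anhydrase, fell 1.39-fold (limma adjusted p = 0.00661; 0.117 in the authors' series table), LHCB1.2 (log2 -0.20) was not called, and the sum was 383 to 476 against 453 to 496. Of this list 16.7% was called, against 52.9% of all genes tested. With scaling to spike-ins all 6 were lower, and 3 were with the mean over each gene's probes. The flower list had 20% called, against 52.9% of all genes tested. Its sum was 1.34 to 2.24 against 0.897 to 2.01, and on the transgenic arrays PI weighs most in it (mean 0.24). Of these 5 markers PI, a petal and stamen identity factor, was 2.26-fold higher, and AG (log2 -1.52; limma adjusted p = 0.109) was not called. AP3 (log2 -0.66), SEP3 (log2 -0.51) and AP1 (log2 -0.39) were not called either, and with scaling to spike-ins 4 of the 5 were lower. The initiation activators of trichomes summed to 5.17 to 6.12 against 6.21 to 6.41. TTG1, the brightest of them, weighs most in this sum (mean 2.06 on the transgenic arrays). It was not called (log2 -0.05; limma adjusted p = 0.704). The next brightest, MYB23, had a mean of -0.65 there and was called lower. The sum is thus no measure of the activator list as a whole. AG, above background on 2 of 4 transgenic arrays, was the only marker of these 5 lists not well above background on all 7 arrays. The part of any of these shifts in the changes of SIM, ZFP8 and STI was not tested.

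**Figure D5:**
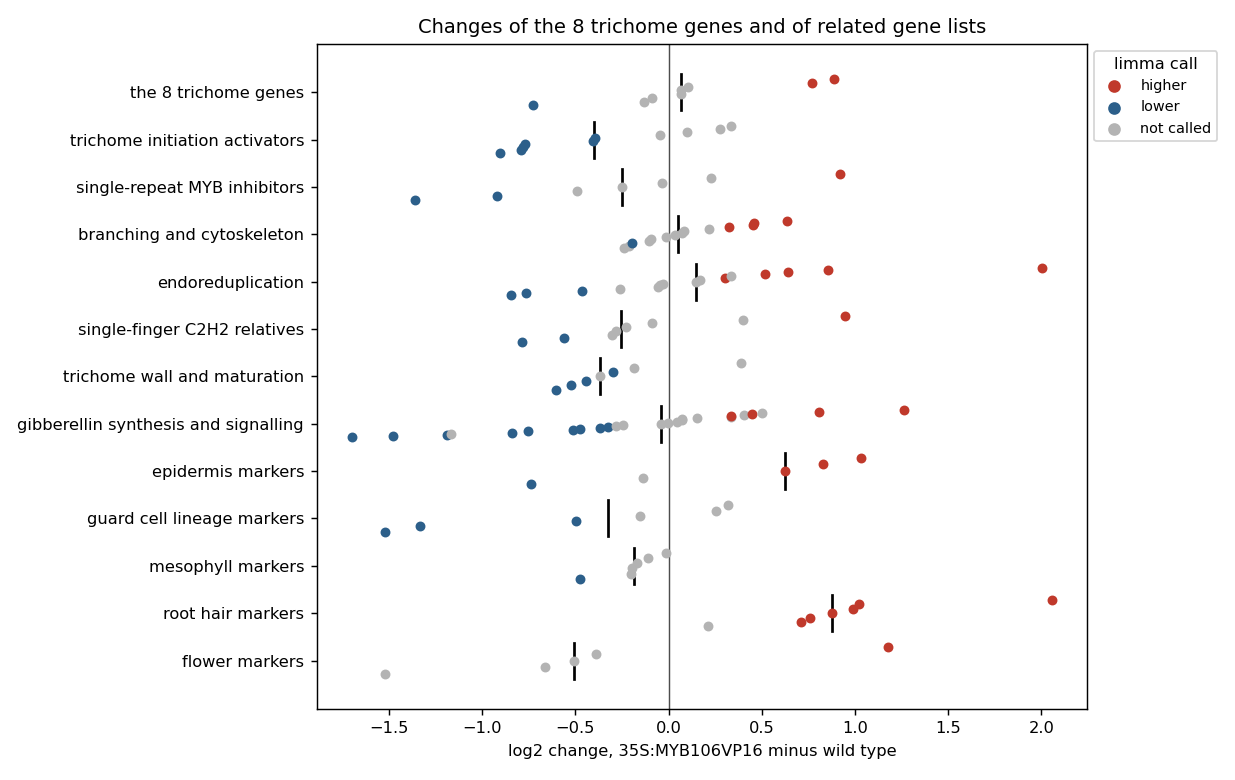
Log2 change, 35S:MYB106VP16 minus wild type, of each tested gene in the 8 trichome genes and in 12 related lists, coloured by limma call, with a bar at each list's median. The medians run from -0.51 for flower markers to 0.87 for root hair markers, and the 8 trichome genes lie at 0.07.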

How the data were processed

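Single-colour arrays of 4 35S:MYB106VP16 and 3 wild-type RNA samples were analysed, with 1 µg of RNA labelled for each, per the labels' protocols. The deposited spot intensity is the processed (background-corrected) signal that the authors obtained from Agilent Feature Extraction 9.1.3.1, with extended dynamic range extraction on, per the file headers. From 45220 spots, of which none was saturated, control spots and outlier spots were left out and repeated spots averaged; each array's 75th percentile was then subtracted on the log2 scale. All 11 probes of the 8 genes kept a value on all 7 arrays. Unversioned RefSeq accessions matched 34185 of 36022 probes to genes of TAIR10.1. The files name no genome build, so no coordinates are given, and no sequences were used here. A gene was its probe with the highest mean, tested where well above background on at least 3 arrays, by lmFit and eBayes of limma 3.58.1 in R 4.3.3, and genotype alone was modelled. Precision is limited by the number of arrays.

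The 8 genes, the lists and the tests were chosen with earlier results of these data known. Named are all members, MYB106, from each list the 2 called genes that changed most (or, failing these, those with the smallest adjusted p) and the 3 profile neighbours of the 2 members that changed most; other names were chosen after their values were seen. Alternatives were the mean over probes, normexp with an offset of 50, quantile, median and spike-in scaling, the authors' series table, other filters on dim probes, a replicate block and leaving out each array. The deposited series table equals the processed intensity divided by 1 constant per group (1042 and 1238), on a linear, uncentred scale with column medians of 0.331 to 0.438; how these constants were set is unknown. The fit was tested on simulated data.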

Additional observations from a re-analysis of the deposited data

Results flagged for a closer look

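None of the 11 probes of the 8 genes had a transgenic array far from the other 3. Among 54 values checked, those of named genes of the lists included, 2 had such an array, and chance alone gives about 1 in 20 groups. On the array of 35S:MYB106VP16 replicate 3, PI read -0.25 while the other 3 transgenic arrays read 0.36 to 0.42, and KAT1 read -2.80 while they read -2.20 to -2.09. Groups of 3 arrays were not checked.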

How the results depend on the processing

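Of 120 values of the 8 genes under the 15 settings other than spike-in scaling, all kept their side of the threshold, and called genes kept their direction. STI lay between log2 -0.78 and -0.49, SIM between 0.67 and 1.1 and ZFP8 between 0.70 and 0.98. With spike-in scaling 0 members were higher and 6 lower: ZWI stood at -0.65, TBR at -0.70, AN at -0.50, GIS at -0.46 and ZFP5 at -0.50, all called, and SIM at 0.32 and ZFP8 at 0.21, neither called; it shifts all genes alike by construction. All genes called became 1252 higher and 13196 lower there, and 2277 were lower in the authors' series table. ARPC5 turned to -0.11, BRK1 to -0.11 and ARP2 to -0.24 with spike-in scaling, and POR to 0.0126 in the authors' series table. Leaving out each array in turn gave 4238 to 5453 genes higher and 3833 to 5121 lower, 2 members higher and 1 lower. It gave log2 changes of -0.12 to -0.03 for ZWI, -0.78 to -0.69 for STI, 0.03 to 0.09 for AN, 0.76 to 1.06 for SIM, -0.19 to -0.06 for TBR, 0.01 to 0.20 for GIS, -0.00076 to 0.11 for ZFP5 and 0.72 to 0.86 for ZFP8. Of 686 values of named list genes, 638 kept direction and call, 31 lost a call, 13 gained one and 4 turned. Replicate numbers are shared by the groups. Deviations of same-numbered arrays correlated at 0.18, -0.03 and -0.08, and those of other pairs at -0.31 to 0.17. So few arrays cannot show whether the numbers pair anything. With the replicate block over replicates 1 to 3, 4585 genes were higher and 4493 lower, and 2 members higher and 1 lower. With this block 3 of 7 root hair markers were higher, without EXPA7 (limma adjusted p = 0.0527). The cause of changes was not tested otherwise, and slide could not be a block since each holds 1 genotype.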
